A study of Homo sapiens with 6 samples.

Results

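G0S2 and the genes that load and unload lipid droplets were followed in MOLM-13 cells after toosendanin. The set holds 9 of the 30741 genes of the expression table, taken by symbol: the lipase gene PNPLA2 with its activator ABHD5 and its inhibitor G0S2, the downstream lipases LIPE and MGLL, the droplet coat genes PLIN2 and PLIN3, and the acyltransferases DGAT1 and DGAT2. The members were selected on their FPKM in TSN against DMSO in these same libraries, around G0S2, which was among the genes lowest in TSN relative to DMSO. For that reason the values of the 9 genes in TSN and DMSO are given as a description, with no test.

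MOLM-13 is an established line from a human acute myeloid leukaemia, with a fusion of KMT2A and a tandem repeat within FLT3. RNA-seq libraries came from cells kept for 48 h with 20 nM TSN, taken here as toosendanin, a triterpenoid of Melia toosendan, and from cells kept for the same time with DMSO, in 3 libraries each. All 6 samples have the genotype WT, come from this 1 cell line and were grown in RPMI-1640 with fetal bovine serum and antibiotics. DMSO is entered as the treatment of all 6 samples, TSN ones included, so groups rest on the sample titles. The columns used for DMSO do not carry that word and were assigned because it is the only group besides TSN, which limits every comparison. In RNA from a whole culture, fewer expressing cells and less RNA per cell cannot be told apart.

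As background, a cell stores fatty acids as triacylglycerol in lipid droplets, whose last synthetic step is made by DGAT1 or DGAT2. PNPLA2 encodes adipose triglyceride lipase, which removes the first fatty acid. The protein of ABHD5 activates this lipase on the droplet, and the small protein of G0S2 binds the lipase and blocks it. Hormone-sensitive lipase, from LIPE, and monoacylglycerol lipase, from MGLL, then release the remaining fatty acids. The pathway is best known from fat tissue. G0S2 was named after its induction in blood mononuclear cells entering the cell cycle.

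Estimated depth was 37400000 to 50600000 fragments per library, and 22170 to 24654 genes per library were above 0. Of 10 markers fixed for acute myeloid leukaemia and monocytic cells, 9 reached 1 FPKM (read fragments for each kilobase of a gene's exons, scaled to library size) in at least 1 library. The exception was CD14, at most 0.643 FPKM, and FLT3 ran from 2.93 to 6.78 FPKM in TSN and from 4.98 to 6.28 FPKM in DMSO. The summed level of the 10 was 2211 to 2289 FPKM in TSN and 3590 to 3863 FPKM in DMSO, and nearly all of it was MPO, the peroxidase of myeloid granules. MPO fell to 2020 ± 27.4 FPKM in TSN, against 3567 ± 135 FPKM in DMSO (SD, n = 3 each; limma adjusted p = 0.0221). Without MPO, an omission chosen after the values were seen, the sum was 222 to 259 FPKM in TSN and 176 to 195 FPKM in DMSO. Among these, ITGAM, an integrin of mature myeloid cells, rose to 11.7 ± 2.81 FPKM in TSN, against 3.24 ± 0.581 FPKM in DMSO (SD, n = 3 each; limma adjusted p = 0.00789). The list did not move as a whole. CEBPA was lower, at 20.9 ± 4.82 FPKM in TSN and 33.95 ± 5.80 FPKM in DMSO (limma adjusted p = 0.084). SPI1 was higher, at 131 ± 45.6 FPKM in TSN and 78.3 ± 12.1 FPKM in DMSO (limma adjusted p = 0.138). CSF1R was also higher, at 3.59 ± 0.711 FPKM in TSN and 2.23 ± 0.246 FPKM in DMSO (limma adjusted p = 0.0936). FLT3, CD33, PTPRC, LYZ and CD14 overlapped between the groups. The part of these markers in the results for the 9 genes was not tested. For other cell types, the markers analysed were 3 of 6 fixed for adipocytes, 4 of 6 for hepatocytes and 3 of 4 for erythroid cells. They were 4 of 5 for lymphoid cells and 4 of 5 for epithelial cells or fibroblasts. ADIPOQ, PLIN1 and FABP4 of adipocytes were not among them. Of the adipocyte markers, 1 of the 3 analysed, LPL, reached 1 FPKM. The summed level of the 3 was 1.38 to 3.70 FPKM in TSN and 1.52 to 1.90 FPKM in DMSO. None of 4 hepatocyte markers reached 1 FPKM, with sums of 0.831 to 1.14 FPKM in TSN and 0.518 to 0.662 FPKM in DMSO. None of 3 erythroid markers did, with sums of 0.0205 to 0.110 FPKM in TSN and 0.0258 to 0.559 FPKM in DMSO. Among markers of lymphoid cells 3 of 4 did, with sums of 7.63 to 15.8 FPKM in TSN and 6.74 to 8.02 FPKM in DMSO. For epithelial cells or fibroblasts 2 of 4 did, with sums of 4.92 to 6.25 FPKM in TSN and 5.71 to 7.04 FPKM in DMSO. TSN 3 and DMSO 3 stood apart in opposite directions. In the 2812 tested genes with the shortest exon length, at most 2649 bases, TSN 3 lay 0.21 above the other TSN libraries (median, log2(FPKM + 1) scale) and DMSO 3 lay 0.19 below the other DMSO libraries, a median of -0.19. In those with the longest, at least 7030 bases, the medians were -0.60 for TSN 3 and 0.28 for DMSO 3. Results are therefore also given without these libraries.

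G0S2 RNA was lower in every TSN library than in any DMSO library. G0S2 (ENSG00000123689) is a short gene of 866 exon bases on chromosome 1, from 209675420 to 209676388 on the plus strand of GRCh38. Its level was 14.4, 13.1 and 21.6 FPKM in TSN 1, 2 and 3, against 65.7, 63.9 and 49.0 FPKM in DMSO 1, 2 and 3. The groups did not overlap, and the library nearest the other group was number 3 on each side. Means were 16.4 ± 4.62 FPKM in TSN and 59.5 ± 9.17 FPKM in DMSO (SD, n = 3 each), a ratio of 0.275. The log2 difference of -1.82 ± 0.22 (SE of the limma fit, log2(FPKM + 1) scale) was the 9th lowest of 11440 genes. It ran from -2.03 to -1.69 with 1 library left out and was -2.16 without TSN 3 and DMSO 3. Once the dependence of each library on gene length and GC content had been taken out, it was -1.98.

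The promoter windows of G0S2 and PLIN2 are shown because these 2 genes had the lowest and the highest log2 difference of the set. Each runs from 250 bases before to 50 bases after the RefSeq start on GRCh38.p14, 5′ to 3′ on the gene's own strand. The G0S2 window is chr1:209675162-209675461 on the plus strand, and the PLIN2 window is chr9:19127443-19127742 on the minus strand. For each gene the first start listed was used, and other starts were not examined. The PLIN2 window lies inside the GENCODE span of that gene, 19108375 to 19149290, and not at its end. Capitals mark matches to the E-box letters CACGTG and to the TATA letters TATAA on either strand.
G0S2 promoter: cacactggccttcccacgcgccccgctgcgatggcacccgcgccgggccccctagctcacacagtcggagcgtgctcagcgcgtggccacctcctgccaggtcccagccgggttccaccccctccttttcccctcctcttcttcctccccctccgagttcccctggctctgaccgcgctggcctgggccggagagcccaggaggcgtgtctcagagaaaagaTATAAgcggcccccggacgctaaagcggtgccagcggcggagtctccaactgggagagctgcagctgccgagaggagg
PLIN2 promoter: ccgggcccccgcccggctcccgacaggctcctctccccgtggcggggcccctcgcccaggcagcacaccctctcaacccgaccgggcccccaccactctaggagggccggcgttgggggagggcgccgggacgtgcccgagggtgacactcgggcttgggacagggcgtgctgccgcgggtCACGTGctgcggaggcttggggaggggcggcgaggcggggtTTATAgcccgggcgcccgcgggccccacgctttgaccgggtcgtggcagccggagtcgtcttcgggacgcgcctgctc
Both windows hold TATAA letters at -28 from the start, on the gene's strand in G0S2 and on the other strand in PLIN2, and 20.4% of 35116 promoters of the same length hold them on either strand. The E-box letters stood in PLIN2 at -69 and not in the G0S2 window, and 7.26% of all promoters held them. The GC box letters GGGCGG, which 45.0% of all promoters held, matched in PLIN2, PLIN3, PNPLA2 and ABHD5 among the 6 members found in the table of promoters. The CCAAT letters matched in LIPE and PLIN3, against 34.6% of all promoters. These matches describe the letters of the windows and say nothing about binding.

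PNPLA2, the lipase that G0S2 inhibits, had nearly the same mean in both groups, whereas ABHD5 was lower in TSN. PNPLA2 (ENSG00000177666, chromosome 11, 818902 to 825573) was at 40.0, 31.3 and 59.4 FPKM in TSN 1, 2 and 3, against 46.3, 45.3 and 32.7 FPKM in DMSO 1, 2 and 3. The groups overlapped, with the highest value in TSN 3 and the lowest in TSN 2. Means were 43.6 ± 14.4 FPKM in TSN and 41.4 ± 7.56 FPKM in DMSO (SD, n = 3 each), a log2 difference of 0.04 ± 0.26 SE. Without TSN 3 and DMSO 3 the difference was -0.36 and the remaining libraries did not overlap. ABHD5 (ENSG00000011198, chromosome 3, 43690108 to 43734371) had 2.49, 2.54 and 1.93 FPKM in TSN 1, 2 and 3, against 3.19, 3.70 and 3.58 FPKM in DMSO 1, 2 and 3. The groups did not overlap, with a log2 difference of -0.44 ± 0.14 SE. Its groups overlapped once the trends with length and GC content were removed, where the difference was -0.22. Exons of PNPLA2 share 10.4% of their bases with a gene on the opposite strand, and whether counting used strand is not known here.

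Within a library, G0S2 and PNPLA2 moved together among replicates, so that their ratio varied little inside each group. This was not particular to the pair. ECHS1, a gene of fatty acid oxidation picked after its values were seen, moved likewise. It was at 255, 201 and 378 FPKM in TSN 1, 2 and 3, against 231, 230 and 165 FPKM in DMSO 1, 2 and 3. FPKM are scaled per length, but the gene lengths used are not given. The size of a ratio between genes therefore holds only as far as the table's scaling does. For a ratio of 1 gene to another, the fold between the groups does not depend on the lengths. For shares and sums over genes, given further below, the fold depends on them too. The FPKM of G0S2 per FPKM of PNPLA2 was 0.360, 0.417 and 0.364 in TSN 1, 2 and 3, against 1.42, 1.41 and 1.5 in DMSO 1, 2 and 3. The FPKM of G0S2 was below that of PNPLA2 in all 3 TSN libraries and above it in all 3 DMSO libraries. Mean ratios were 0.380 ± 0.0318 in TSN and 1.44 ± 0.0473 in DMSO (SD, n = 3 each). TSN 3 lay 0.62 above the other TSN libraries for G0S2 and 0.73 above them for PNPLA2 on the log2(FPKM + 1) scale. DMSO 3 deviated by -0.40 for G0S2 and by -0.47 for PNPLA2. ABHD5 per 100 PNPLA2 was 6.24, 8.12 and 3.25 in TSN 1, 2 and 3, against 6.89, 8.18 and 10.9 in DMSO 1, 2 and 3, and these groups overlapped.

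**Figure D1:**
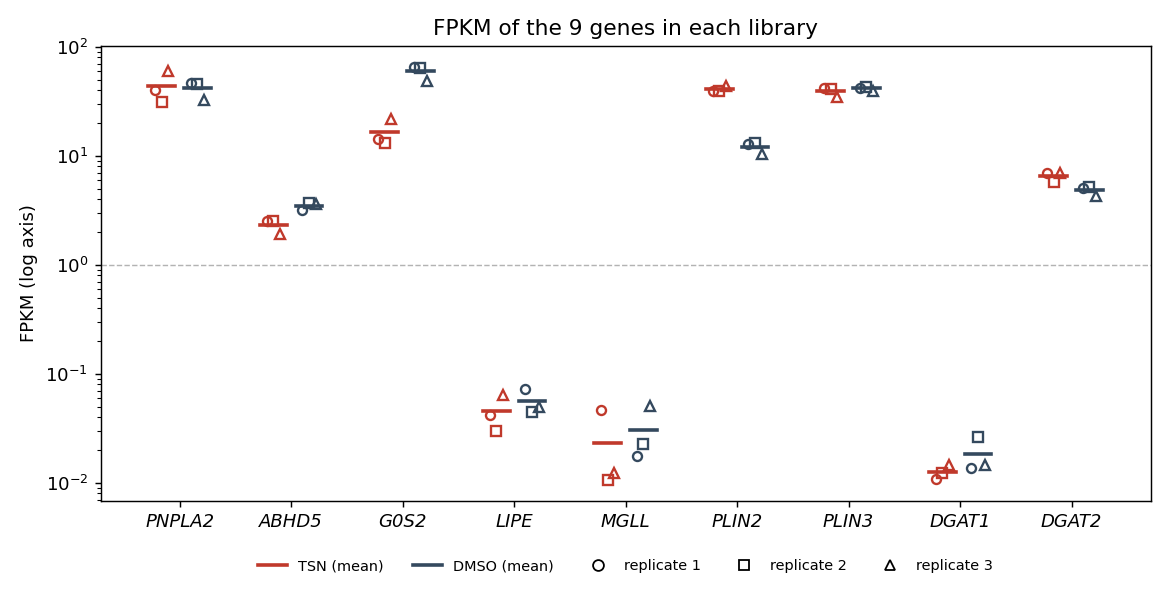
FPKM (log axis) of the 9 genes in each of the 6 libraries, with TSN at the left and DMSO at the right of each gene. Symbols are replicates 1 to 3, horizontal bars are group means and the dashed line is 1 FPKM. G0S2 lies lower in TSN (13.1 to 21.6 FPKM) than in DMSO (49.0 to 65.7 FPKM), PLIN2 lies higher, and LIPE, MGLL and DGAT1 stay below 0.1 FPKM.

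**Figure D2:**
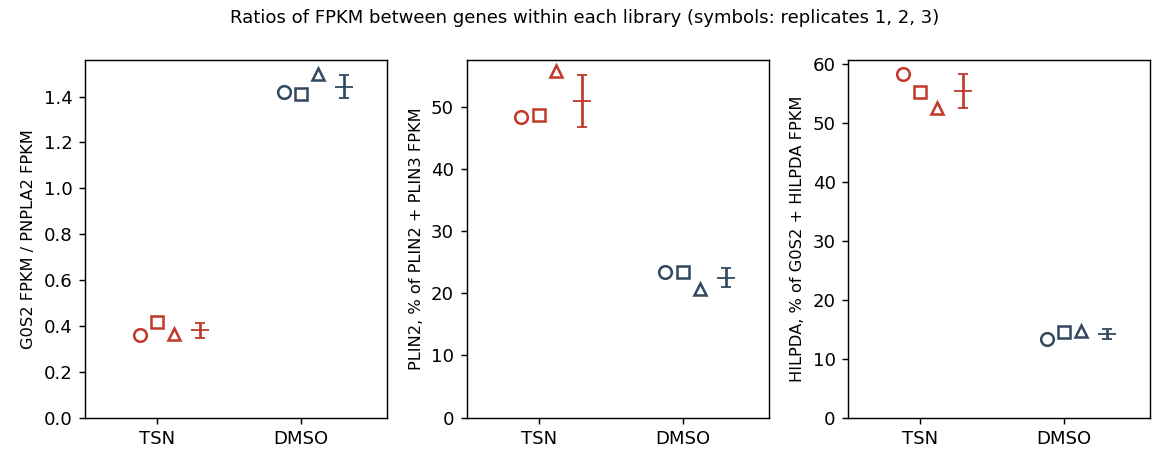
Ratios of FPKM between genes within each library, TSN left and DMSO right, with symbols for replicates 1 to 3 and the mean ± SD beside them. G0S2 per PNPLA2 is 0.360 to 0.417 in TSN and 1.41 to 1.5 in DMSO. The PLIN2 and HILPDA shares are higher in every TSN library than in any DMSO library.

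The lipases for the later steps were listed at under 0.1 FPKM in all 6 libraries, and such a low value in this table does not show that the RNA is lacking. LIPE (ENSG00000079435, chromosome 19, 42401507 to 42427426) was at 0.0421, 0.0300 and 0.0633 FPKM in TSN 1, 2 and 3, and at 0.0730, 0.0446 and 0.0500 FPKM in DMSO 1, 2 and 3. With the estimated depths, the smallest whole numbers of fragments that give these values are 8, 5 and 9 in TSN and 11, 7 and 7 in DMSO. MGLL (ENSG00000074416, chromosome 3, 127689062 to 128052190) was at 0.0464, 0.0106 and 0.0124 FPKM in TSN 1, 2 and 3, and at 0.0176, 0.0225 and 0.0504 FPKM in DMSO 1, 2 and 3. The smallest such numbers for MGLL are 10, 2 and 2 fragments in TSN and 3, 4 and 8 fragments in DMSO. They imply gene lengths of 3717 bases for LIPE and 4228 for MGLL, below their exon lengths of 5206 and 11849 bases. Longer lengths would give more fragments. Both genes overlapped between the groups and did not pass the filter of at least 1 FPKM in 3 libraries, so no difference was tested. The step of 1 fragment was estimated from genes with a single exon, where 95.2% to 95.6% of low values fell on whole steps within a tolerance of 0.1, and it covers counting error only.

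PLIN2, the droplet coat protein found in most cell types, was higher in every TSN library than in any DMSO library, while its relative PLIN3 was at a like level in both groups. PLIN2 (ENSG00000147872, chromosome 9, 19108375 to 19149290) was at 39.4, 39.1 and 43.5 FPKM in TSN 1, 2 and 3, against 12.8, 13.1 and 10.3 FPKM in DMSO 1, 2 and 3. The 3 TSN values lay close together, far above the DMSO values. Means were 40.7 ± 2.50 FPKM in TSN and 12.1 ± 1.55 FPKM in DMSO (SD, n = 3 each), a ratio of 3.36 and a log2 difference of 1.68 ± 0.14 SE. It was the 106th highest log2 difference of 11440 genes, ran from 1.57 to 1.73 with 1 library left out, and was 1.52 without TSN 3 and DMSO 3. PLIN3 (ENSG00000105355, chromosome 19, 4838341 to 4867768), which coats small and new droplets and moves between them and the cytosol, was at 42.0, 41.1 and 34.7 FPKM in TSN 1, 2 and 3. In DMSO 1, 2 and 3 it was at 42.1, 42.9 and 39.5 FPKM. These groups overlapped, with a log2 difference of -0.08 ± 0.13 SE, which was 0.03 with median log ratio scaling and -0.25 without the dependence on length and GC content. Exons of PLIN3 share 17.8% of their bases with a gene on the opposite strand.

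PLIN2 made up 48.4%, 48.7% and 55.7% of the summed FPKM of PLIN2 and PLIN3 in TSN 1, 2 and 3, against 23.4%, 23.4% and 20.7% in DMSO 1, 2 and 3. G0S2 and PLIN2 differed between the groups in opposite directions. Per FPKM of PLIN2, G0S2 was at 0.365, 0.335 and 0.497 in TSN 1, 2 and 3, against 5.12, 4.87 and 4.75 in DMSO 1, 2 and 3, and the ratio of the means was 0.0813.

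DGAT2 was somewhat higher in TSN, and DGAT1 was almost unread in all 6 libraries. DGAT2 (ENSG00000062282, chromosome 11, 75759512 to 75801535), an enzyme that joins the third fatty acid onto diacylglycerol at the endoplasmic reticulum and the droplet, was at 6.90, 5.74 and 6.95 FPKM in TSN 1, 2 and 3. It was at 5.09, 5.21 and 4.30 FPKM in DMSO 1, 2 and 3. The groups did not overlap, with means of 6.53 ± 0.685 FPKM in TSN and 4.87 ± 0.497 FPKM in DMSO (SD, n = 3 each) and a log2 difference of 0.36 ± 0.15 SE. They did overlap after quantile normalization and after removal of the trends with length and GC content.

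DGAT1 (ENSG00000185000, chromosome 8, 144314584 to 144326910), the other enzyme of this step, was at 0.0109, 0.0124 and 0.0145 FPKM in TSN 1, 2 and 3, and at 0.0137, 0.0263 and 0.0147 FPKM in DMSO 1, 2 and 3. The smallest whole numbers of fragments that give these values are 1 per library, and 2 in DMSO 2. Whether the transcript is lacking cannot be told from such values, and the neighbours of DGAT1 were also low. From HSF1, the heat shock transcription factor, to SLC39A4, a zinc transporter, all 6 protein-coding genes of this stretch that were analysed were at or below 0.144 FPKM. They include CPSF1, a subunit of the complex that cleaves mRNA for polyadenylation and a gene of every cell, which was listed at 0 in 5 libraries and at 0.00890 FPKM in TSN 1. On either side, VPS28 was at 0.812 to 1.92 FPKM in TSN and 1.98 to 3.38 FPKM in DMSO, BOP1 was at 42.0 to 102 FPKM in TSN and 42.7 to 78.1 FPKM in DMSO, and TONSL was at 11.5 to 16.4 FPKM in TSN and 16.0 to 17.2 FPKM in DMSO. The stretch spans chromosome 8 from 144291591 to 144416895, and these neighbours were chosen after their values were seen. Why the values are low there was not tested.

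The order of the 9 genes by FPKM differed between the groups. In TSN, PNPLA2, PLIN2 and PLIN3 came first, at 43.6 ± 14.4, 40.7 ± 2.50 and 39.3 ± 4.01 FPKM (SD, n = 3), and did not differ from each other beyond their spread. G0S2 followed, then DGAT2 at 6.53 and ABHD5 at 2.32 FPKM. In DMSO, G0S2 came first at 59.5 ± 9.17 FPKM, above PLIN3 at 41.5 ± 1.74 and PNPLA2 at 41.4 ± 7.56 FPKM, which did not differ beyond their spread (SD, n = 3). PLIN2 followed at 12.1 FPKM, then DGAT2 at 4.87 and ABHD5 at 3.49 FPKM. LIPE, MGLL and DGAT1 came last in both groups. The spread of MGLL overlapped those of LIPE and of DGAT1, and values of so few fragments support no order among the 3. Of the 9 genes, 6 passed the filter on low values. Among these 6, the groups did not overlap in 4, while 39.2% of all 11440 genes tested did not overlap either. In the limma fit over all genes, 2 of the 6, G0S2 as lower and PLIN2 as higher, had an adjusted p under 0.05 (Benjamini-Hochberg), beside 14.9% of all genes. Since this contrast was used to draw up the set, nothing is read from these counts.

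**Figure D3:**
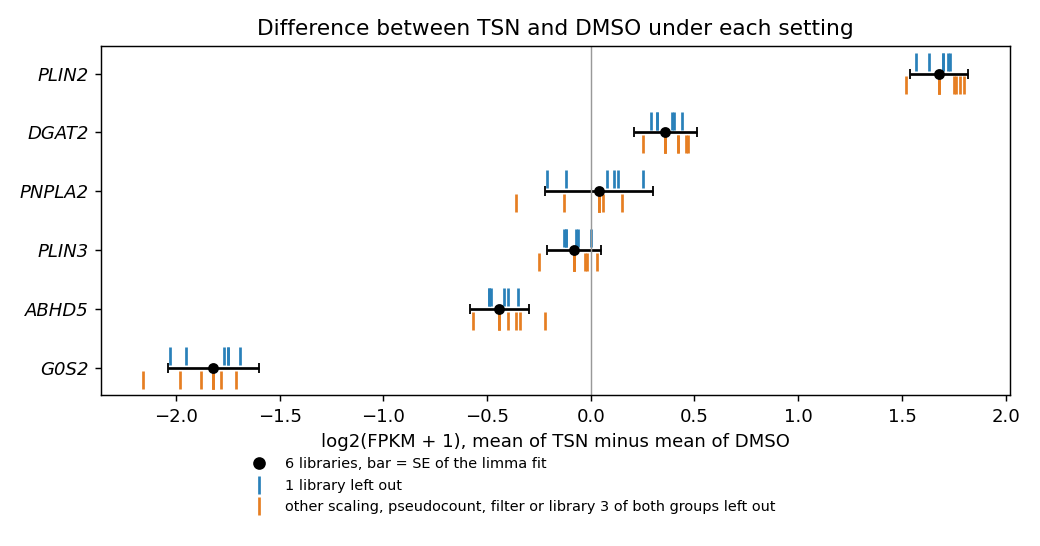
Log2 difference between the mean of TSN and the mean of DMSO on the log2(FPKM + 1) scale for the 6 genes that passed the filter on low values. Black points are the fit to 6 libraries with its SE, blue ticks leave out 1 library each, and orange ticks are the other settings. G0S2 stays between -2.16 and -1.69 and PLIN2 between 1.52 and 1.80, while PNPLA2 and PLIN3 fall on both sides of 0.

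The 5 genes whose profile over the 6 libraries was most like that of G0S2 were SOX18, H1-2, CTSG, CILP2 and UFSP1. Likeness was the root mean square distance between log2(FPKM + 1) values after subtracting each gene's own mean, over 6 libraries that fall into 2 groups. SOX18, a transcription factor of vessel and lymphatic development, was nearest, at a distance of 0.08 (Pearson r = 0.998 over 6 libraries, given as a description). It was at 18.9, 14.7 and 26.5 FPKM in TSN 1, 2 and 3, against 87.9, 79.4 and 60.0 FPKM in DMSO 1, 2 and 3. The linker histone gene H1-2 followed at 0.12, and CTSG, cathepsin G of neutrophil granules, at 0.15, with means of 5.99 ± 2.06 FPKM in TSN and 19.1 ± 1.85 FPKM in DMSO (SD, n = 3 each). All 5 share with G0S2 that library 3 of each group lies nearest the other group. They were chosen by likeness over these same libraries, so nothing is read from this.

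Around these 9 genes, 12 lists of genes of lipid storage and use were compared between TSN and DMSO, without the members. They hold 179 genes, of which 167 were found and 131 passed the filter on low values. In the limma fit, 8 of the 131 rose (7.71% of all genes tested rose) and 4 fell (7.20% of all genes fell) at an adjusted p under 0.05, so 9.16% changed, beside 14.9% of all genes. The median log2 difference was 0.01, beside -0.10 over all genes. The number of changed genes was 2 without DMSO 1, without DMSO 2, without DMSO 3 or without TSN 1, and in each of these fits the 2 were ABHD4 and STARD4. It was 29 without TSN 3 and 36 without both TSN 3 and DMSO 3. It was 3 with no filter on low values and 23 with quantile normalization. Over all genes, 326, 259 and 450 changed without DMSO 1, 2 and 3, 369 without TSN 1, 2823 without TSN 3 and 3299 without TSN 3 and DMSO 3, against 1706 with all libraries.

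Among genes of droplet coats and structure, HILPDA, another protein that binds and inhibits the lipase of PNPLA2, rose in TSN, unlike G0S2. HILPDA (chromosome 7, 128455849 to 128458418) was at 20.2, 16.2 and 24.1 FPKM in TSN 1, 2 and 3, against 10.1, 11.0 and 8.45 FPKM in DMSO 1, 2 and 3. The groups did not overlap, with means of 20.2 ± 3.94 FPKM in TSN and 9.83 ± 1.27 FPKM in DMSO (SD, n = 3 each) and a log2 fold change of 0.96 ± 0.19 SE (limma adjusted p = 0.0221). It was the only call among the 5 genes of its list that passed the filter, whose median log2 difference was 0.35. This is 20% of the list, beside 14.9% of all genes tested. The groups did not overlap in 4 of these 5 genes, while 39.2% of all genes did not overlap either. With 1 library left out the limma adjusted p of HILPDA was 0.0868 to 0.103 in 4 fits, those without TSN 1, DMSO 1, DMSO 2 or DMSO 3. HILPDA made up 58.4%, 55.3% and 52.6% of the summed FPKM of both inhibitors in TSN 1, 2 and 3, against 13.3%, 14.6% and 14.7% in DMSO 1, 2 and 3. The sum of G0S2 and HILPDA per FPKM of PNPLA2 was 0.866, 0.934 and 0.769 in TSN 1, 2 and 3, against 1.64, 1.65 and 1.75 in DMSO 1, 2 and 3. These last 2 measures were chosen after the values were seen and carry no test. Exons of HILPDA share 13.2% of their bases with another gene.

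Of hydrolases outside the set, 25% of PNPLA genes and 8.33% of neutral lipid hydrolases were called, beside 14.9% of all genes tested. Of 4 other PNPLA genes tested, PNPLA7, a lysophospholipase, rose, at 2.99, 2.83 and 3.91 FPKM in TSN 1, 2 and 3 against 1.28, 1.47 and 1.10 FPKM in DMSO 1, 2 and 3 (log2 fold change 0.89 ± 0.15 SE, limma adjusted p = 0.0141). Of 12 other neutral lipid hydrolases, ABHD4, a relative of ABHD5 that acts on N-acyl phospholipids, rose, at 5.94, 6.61 and 4.97 FPKM in TSN 1, 2 and 3 against 1.5, 1.48 and 1.38 FPKM in DMSO 1, 2 and 3. Its log2 fold change was 1.47 ± 0.14 SE (limma adjusted p = 0.00303) and kept its call in each fit with 1 library left out. The medians of these lists were 0.39 and -0.02. The call of PNPLA7 was lost without TSN 1, DMSO 1, DMSO 2 or DMSO 3, with limma adjusted p from 0.0669 to 0.0795.

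Of genes of triacylglycerol synthesis 11.1% were called, and of those of sterol ester storage 40%, beside 14.9% of all genes tested. Of 9 genes of triacylglycerol synthesis, GPAM fell and 0 rose by limma, with a list median of 0.33. At an unadjusted limma p under 0.05, 2 were higher and 1 was lower. In either direction, 3524 of all 11440 genes passed that unadjusted threshold. GPAM, the mitochondrial enzyme that adds the first fatty acid to glycerol 3-phosphate, was at 2.86, 3.97 and 2.00 FPKM in TSN 1, 2 and 3, against 6.20, 6.36 and 9.28 FPKM in DMSO 1, 2 and 3 (log2 fold change -1.08 ± 0.24 SE, limma adjusted p = 0.0327). It opens the route that DGAT2 closes, and DGAT2 was higher in TSN as given above. Of 5 genes of sterol ester storage, STARD4, a carrier of cholesterol between membranes, rose to 15.1 ± 5.17 FPKM in TSN, against 2.31 ± 0.403 FPKM in DMSO (SD, n = 3 each; log2 fold change 2.23 ± 0.27 SE, limma adjusted p = 0.00582). LCAT, which esterifies cholesterol in plasma, rose to 7.12 ± 2.56 FPKM in TSN, against 2.06 ± 0.476 FPKM in DMSO (SD, n = 3 each; 1.37 ± 0.26 SE, limma adjusted p = 0.0205). Exons of LCAT share 12.8% of their bases with another gene. The calls of GPAM and LCAT were lost without TSN 1, DMSO 1, DMSO 2 or DMSO 3.

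Of genes that take up fatty acids 8.33% were called, and of those that burn them in mitochondria 0%, beside 14.9% of all genes tested. Of 12 genes of uptake, binding and activation, SLC27A4, a fatty acid transport protein and acyl-CoA synthetase, fell and 0 rose by limma, with 3 higher at an unadjusted p under 0.05. It was at 12.9, 12.1 and 15.9 FPKM in TSN 1, 2 and 3, against 24.1, 25.1 and 20.1 FPKM in DMSO 1, 2 and 3 (log2 fold change -0.72 ± 0.16 SE, limma adjusted p = 0.0310), and its call was lost in each fit with 1 library left out except that without TSN 3. With median log ratio scaling its limma adjusted p was 0.109, and with quantile normalization 0.0791. Of 19 genes of mitochondrial fatty acid oxidation, 0 changed in the limma fit, and 1 was higher and 2 were lower at an unadjusted p under 0.05. Over all 11440 genes tested, 3524 passed that unadjusted threshold, in either direction. The most abundant were ECHS1, an enoyl-CoA hydratase, at 278 ± 90.5 FPKM in TSN and 209 ± 38.2 FPKM in DMSO, and HADHA of the trifunctional enzyme, at 197 ± 5.13 FPKM in TSN and 186 ± 5.61 FPKM in DMSO (SD, n = 3 each). Their limma adjusted p was 0.39 and 0.70.

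Of 20 genes of droplet turnover and trafficking, 0 changed by limma, beside 14.9% of all genes tested. An unadjusted limma p under 0.05 was reached by 0 of them, beside 3524 of all 11440 genes tested. The list median was -0.14. The most abundant were ARF1, a small GTPase, at 306 ± 17.4 FPKM in TSN and 310.3 ± 24.4 FPKM in DMSO, and AUP1, a droplet protein that recruits ubiquitin enzymes, at 157 ± 25.8 FPKM in TSN and 166 ± 21.7 FPKM in DMSO (SD, n = 3 each). Their limma adjusted p was 0.943 and 0.781. Exons of AUP1 share 18.3% of their bases with another gene.

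Among genes that control lipolysis, 5.56% of cAMP and insulin signalling and 7.69% of PPAR, RXR and FOXO control were called. Of further PPAR targets 40% were called, beside 14.9% of all genes tested. Of 18 genes of cAMP and insulin signalling, ADCY3, an adenylyl cyclase, rose to 1.51 ± 0.340 FPKM in TSN, against 0.537 ± 0.123 FPKM in DMSO (SD, n = 3 each; 0.70 ± 0.14 SE, limma adjusted p = 0.0240). ADCY3 passed the filter on low values only through its TSN libraries, its limma adjusted p was 0.0727 with no filter, and its exons share 26.0% of their bases with another gene. Of 13 genes of PPAR, RXR and FOXO control, PPARD, a nuclear receptor for fatty acids whose known targets include PLIN2, rose, at 18.2, 20.6 and 13.3 FPKM in TSN 1, 2 and 3 against 8.59, 9.17 and 8.25 FPKM in DMSO 1, 2 and 3 (0.90 ± 0.19 SE, limma adjusted p = 0.0257), while the list median was -0.33. Of 5 further PPAR targets, TXNIP, an inhibitor of thioredoxin, fell to 120 ± 19.8 FPKM in TSN, against 198 ± 5.93 FPKM in DMSO (SD, n = 3 each; -0.73 ± 0.16 SE, limma adjusted p = 0.0305). ACOT2, a mitochondrial acyl-CoA thioesterase, fell to 16.9 ± 0.672 FPKM in TSN, against 24.3 ± 1.36 FPKM in DMSO (SD, n = 3 each; -0.50 ± 0.12 SE, limma adjusted p = 0.0386), and its reads can be shared with its near-identical neighbour ACOT1. With median log ratio scaling the limma adjusted p of ACOT2 was 0.0968, and with quantile normalization 0.062. All 4 calls were lost without TSN 1, DMSO 1, DMSO 2 or DMSO 3, and that of ACOT2 also without TSN 2.

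**Figure D4:**
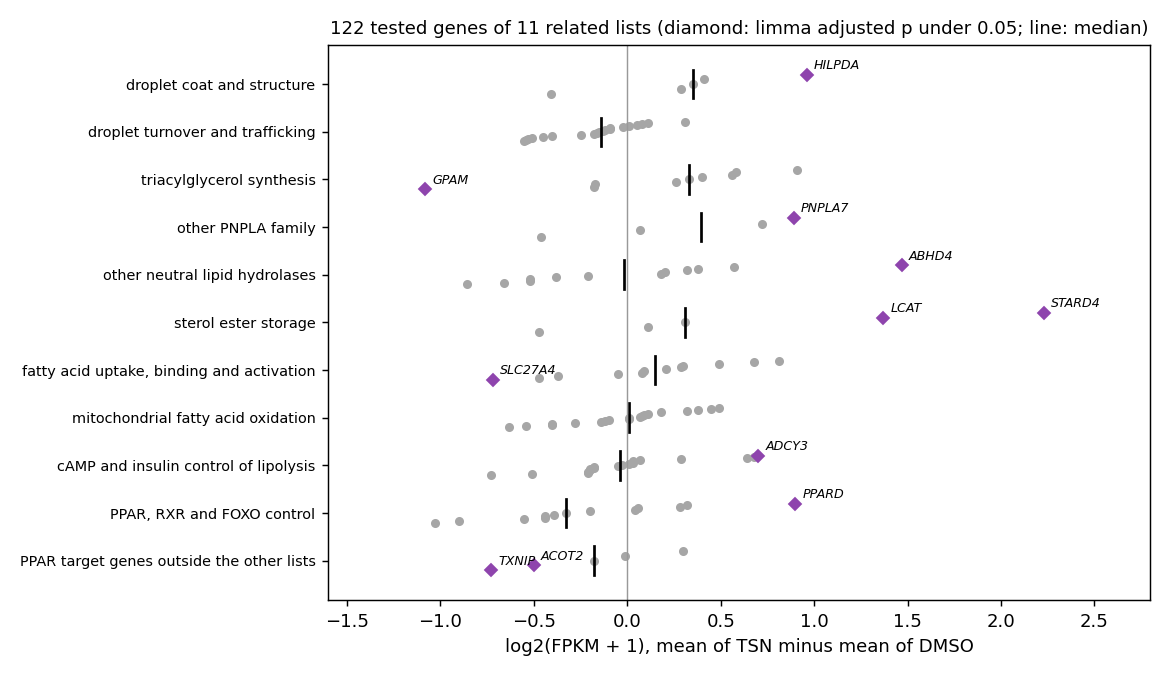
Log2 difference between the mean of TSN and the mean of DMSO for the 122 tested genes of 11 of the lists of lipid storage and use, 1 list per line. Diamonds with names are the 11 genes with a limma adjusted p under 0.05, grey points are the other genes and vertical lines are list medians. Of the diamonds, 7 lie to the right (higher in TSN) and 4 to the left.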

How the data were processed

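RNA-seq of 6 MOLM-13 libraries (3 TSN, 3 DMSO) was analysed from 1 table that the authors deposited, with 30741 genes and values in FPKM. The unit was read from the values. Per the submitters' processing notes, the build was GRCh38 and the tools included DESeq2 1.26.0. For aligner, counter, annotation, strand setting and gene lengths, nothing is given in the sources used here. FPKM are not counts, so log2(FPKM + 1) was tested with limma 3.58.1 in R 4.3.3 (variance trend, robust moderation) on the 11440 genes that reached 1 FPKM in 3 or more libraries. Adjustment of p-values over all of them followed Benjamini and Hochberg, with a threshold of 0.05. The scale understates changes of low genes. The procedure was tested on simulated data. Biological replicates are named as such in the labels, and nothing more is said of their cultures, so p-values measure the spread between these libraries. Even the most alike libraries, those numbered 1 and 2 of DMSO, lay further apart than counting noise allows (chi-square per degree of freedom 3.96, from 1832 single-exon genes).

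Places, exon lengths and overlaps came from GENCODE 29 (GRCh38), which holds 28818 of the table's genes, matched by identifier. Promoters came from RefSeq (GRCh38.p14), where 6 of the 9 members were found, and MGLL, DGAT1 and DGAT2 were not. Depth was estimated from low values of single-exon genes. Members, lists, and the rule for named genes were chosen with earlier results of these data known. Named were the members, per list the called genes of smallest adjusted p, at most 2 in each direction (with no call, the 2 of highest mean), and the 5 genes nearest G0S2 in profile. Python 3.11.15 with numpy 2.4.6 and pandas 2.3.3 handled the tables, and matplotlib 3.10.9 drew the figures. Alternatives were a replicate block, moderation without the variance trend and the robust option, each library left out, and quantile normalization. Others were median log ratio scaling, a pseudocount of 0.1, no filter, and a filter on the mean of at least 5 FPKM. A further pair was chosen after seeing the data: leaving out TSN 3 with DMSO 3, and taking out the dependence on length and GC content by splines (5 degrees of freedom, 11242 genes). The result of 1 list is not reported here gene by gene.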

Additional observations from a re-analysis of the deposited data

How the results depend on the processing

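With 1 library left out, the count of changed genes ran from 259 to 2823 over all genes (1706 with 6 libraries) and from 2 to 29 in the 12 lists (12 with 6 libraries), the members without overlap from 4 to 5, and the log2 difference of G0S2 from -2.03 to -1.69. Fits with fewer libraries also have fewer degrees of freedom, and groups of fewer libraries overlap less readily. The share of all genes without overlap was 39.2% with 6 libraries and is not given here for other settings. Nothing is therefore read from the counts of members without overlap. Counts over all genes and in the lists were 777 and 3 with no filter and 1002 and 7 at a mean of at least 5 FPKM, where 7435 genes were tested. Quantile normalization gave 23 in the lists. Without TSN 3 and DMSO 3 they were 3299 and 36, with G0S2 at -2.16, and after removal of trends with length and GC content 3403 and 38, with 2 members (G0S2 and PLIN2) not overlapping. The cause of these moves was not tested. The replicate block gave 0 calls by limma over all genes (2121 at an unadjusted p under 0.05) and 0 in the lists (17 at an unadjusted p under 0.05). Same-numbered libraries deviated in opposite directions (r = -0.32, -0.65 and -0.83 for numbers 1, 2 and 3 over 11440 genes), so the numbers were not taken as pairs. The 12 called genes kept their direction in every setting in which they were tested, and 3 (ABHD4, STARD4 and PNPLA7) kept their call with no filter. Since none of the 12 overlapped between the groups, only other scaling or the removal of trends could have reversed a direction. Of the uncalled genes named, ARF1 (0.09) and AUP1 (0.03) changed sign with median log ratio scaling, HADHA (-0.08) with quantile normalization and ECHS1 (-0.03) without TSN 3 and DMSO 3. With 1 library left out ARF1 ran from -0.09 to 0.02 and AUP1 from -0.20 to 0.04. LIPE, MGLL and DGAT1 were too low to compare, with 1 to 11 fragments per library as the smallest numbers that give their values.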

Other observations

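Low values beside high ones also occurred outside the DGAT1 stretch, in genes that every cell uses. RPL7A, a ribosomal protein gene, was at 1.38 ± 0.410 FPKM in TSN and 1.6 ± 0.203 FPKM in DMSO, whereas RPL7, another ribosomal protein gene, was at 1536 ± 546 FPKM in TSN and 1256 ± 199 FPKM in DMSO (SD, n = 3 each). EIF5A, a translation factor, was at 3.88 ± 1.14 FPKM in TSN and 4.17 ± 0.823 FPKM in DMSO (SD, n = 3 each). These 3 genes were chosen after their values were seen. Whether a low level of a single gene in this table, DGAT1 included, reflects lack of its RNA cannot be told from these values. Why these values are low was not tested.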
